A study of Homo sapiens with 8 samples.

Results

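The 38 genes described here encode cytosolic factors that start and elongate protein synthesis, apart from eIF2 and its exchange factor eIF2B. They were taken by name from a fixed list and make up 38 of the 18903 genes tested in a genome-wide growth screen. Together they had 192 sgRNAs with usable counts, 5 for each of 36 genes, 4 for EIF3B and 8 for EIF3C. The screen used CRISPRi, in which a catalytically inactive Cas9 fused to the KRAB repressor (dCas9-KRAB) is led to a promoter by an sgRNA and lowers transcription there, so that cells carrying an sgRNA become rarer when its target is needed for growth. The host was K562, a human chronic myeloid leukemia line, carrying dCas9-KRAB and stably expressing uL16, the 60S subunit protein encoded by RPL10. The groups were mutant uL16 at day 9, mutant uL16 at day 0, wild-type uL16 at day 9 and wild-type uL16 at day 0, with 2 libraries each. All 4 groups received the same library and 1 µg/ml puromycin for 3 days. The labels mark the mutant line only as delta and do not name the mutation. The endpoint is given both as day 9 and as 10 doublings. The question posed by the study is which knockdowns act differently when large subunits carry a defective protein. Libraries held 39233340 to 143585751 reads, with a median of 328 to 1219 reads per sgRNA. The labels do not say whether the 2 replicates came from separate cultures, so p-values measure only the spread between these libraries. The files hold sgRNA counts and no RNA or protein levels, so neither the identity of the cells nor the degree of knockdown could be checked.

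A new protein is begun when the cap-binding complex eIF4F (the cap-binding protein eIF4E, the scaffold eIF4G and the helicase eIF4A) prepares an mRNA for the small ribosomal subunit. That subunit arrives with eIF3, eIF1, eIF1A, eIF5 and the initiator tRNA, scans to a start codon, and is joined by the large subunit with the help of eIF5B. Elongation then runs on eEF1A, which brings aminoacyl-tRNA and is recharged by the eEF1B subunits, and on eEF2, which moves the ribosome along by a codon. Several of these mRNAs begin with a C followed by an unbroken stretch of pyrimidines, the terminal oligopyrimidine (TOP) tract, through which mTOR and the RNA-binding protein LARP1 set their translation.

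Many of these factors were lower at the end of growth, in about equal numbers in the 2 lines. Summed over the sgRNAs of a gene, 16 of the 38 factors were lower at day 9 in mutant cells (edgeR quasi-likelihood test, Benjamini-Hochberg adjusted p under 0.05), where 8.53% of all genes tested were lower. In wild-type cells 17 of 38 were lower, against 8.7% of all genes. The only factor that was higher was EIF4B, in mutant cells (1 of 38, beside 0.704% of all genes), and none was higher in wild-type cells (beside 0.868%). The median log2 change of the 38 genes was -0.32 in mutant cells and -0.35 in wild-type cells, while that of all genes was 0.01 in each line. Of the 38, 14 were lower in both lines, 2 only in the mutant test (EIF3F and EEF2), 3 only in the wild-type test (EIF3J, EIF3K and EIF4E), and 18 were called in neither. The remaining gene was EIF4B, higher in mutant cells. None of the 38 differed between the lines after adjustment.

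**Figure D1:**
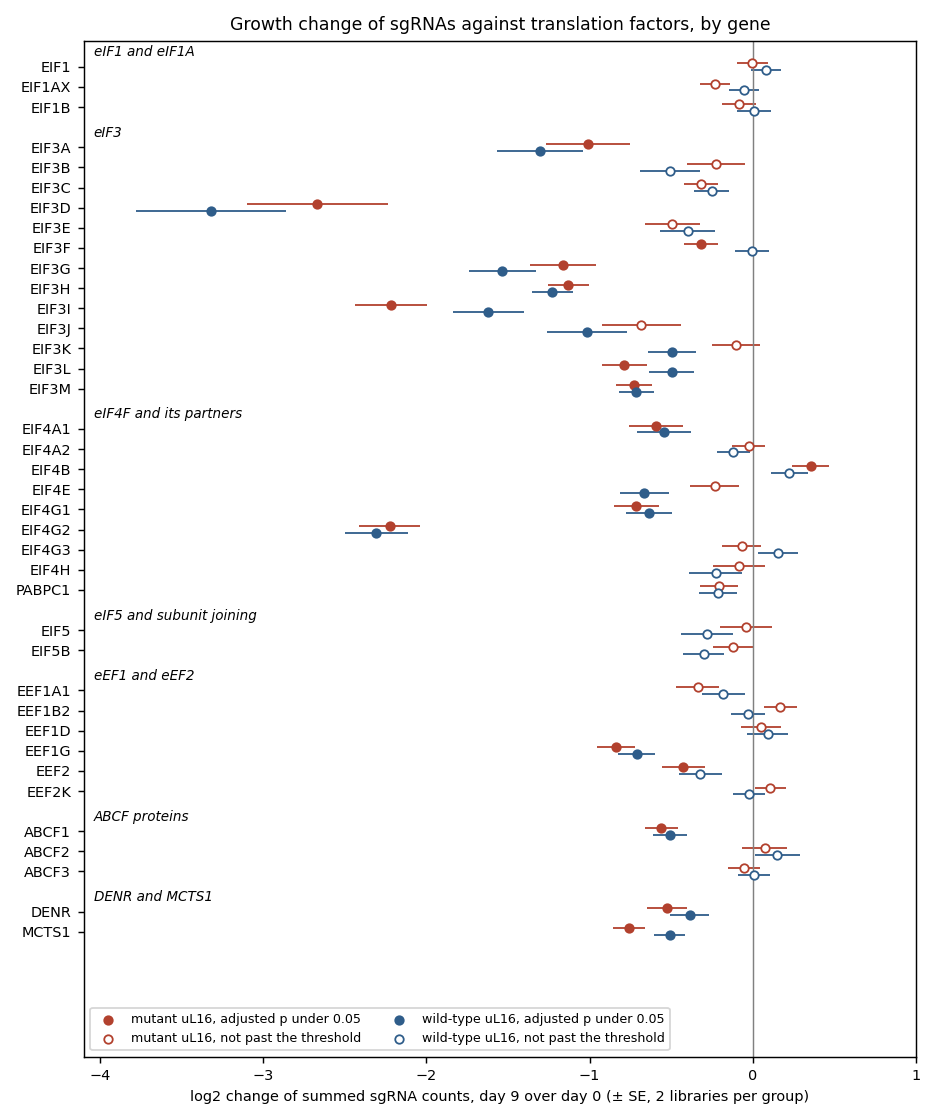
Log2 change of summed sgRNA counts (x axis, day 9 over day 0, ± SE from the edgeR fit, 2 libraries per group) for each of the 38 genes, in mutant (red, upper) and wild-type (blue, lower) uL16 cells, grouped by role. Filled points passed an adjusted p of 0.05: EIF3D, EIF3I and EIF4G2 lie farthest to the left, and EIF4B in mutant cells is the only filled point to the right of 0.

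Where the annotated mRNA start begins with such a pyrimidine stretch was read from RefSeq promoter sequences (GRCh38.p14), of which 31 of the 38 genes have an entry; EIF3A, EIF3E, EIF3G, EIF3H, EIF3L, EEF1D and PABPC1 have none. A start was counted when its base was C and opened a run of at least 5 C or T bases on the gene's own strand. Of the 31 genes, 9 had such a start, while 5.14% of 27305 genes in the table had it. The 6 sequences below are shown because they span the range of responses, with the 35 bases before the start in lower case and the pyrimidine run from the start onward in capitals. A match describes these letters and marks no site.
EIF3D (chr22:36529152-36529201, minus strand): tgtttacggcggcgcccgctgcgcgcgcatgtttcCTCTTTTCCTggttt
EIF3M (chr11:32583796-32583845, plus strand): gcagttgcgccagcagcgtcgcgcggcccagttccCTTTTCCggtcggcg
EEF2 (chr19:3985449-3985498, minus strand): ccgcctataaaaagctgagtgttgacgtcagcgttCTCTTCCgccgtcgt
EEF1A1 (chr6:73521018-73521067, minus strand): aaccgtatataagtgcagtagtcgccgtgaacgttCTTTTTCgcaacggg
EEF1B2 (chr2:206159860-206159909, plus strand): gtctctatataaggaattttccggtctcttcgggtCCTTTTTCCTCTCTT
EIF4B (chr12:53006421-53006470, plus strand): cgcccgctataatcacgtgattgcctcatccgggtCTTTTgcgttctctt

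The growth changes of genes with such a start covered nearly the whole range seen. EIF3D had the steepest fall of the 38, at -2.67 in mutant cells and -3.32 in wild-type cells on the log2 scale. EIF4B had the only called rise, at 0.36 in mutant cells. EEF1B2 had 0.17 in mutant cells and -0.03 in wild-type cells, neither past the test. The median log2 change of the 9 genes was -0.32 in mutant cells and -0.18 in wild-type cells. That of the 22 genes with an entry and no such start was -0.23 in mutant cells and -0.34 in wild-type cells, so the order of the 2 medians was not the same in the 2 lines.

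eIF3, the largest initiation factor, binds the small subunit and organises scanning and recruitment of mRNA. Of its 13 subunits, 8 were lower in mutant cells and 9 in wild-type cells, with median log2 changes of -0.73 in mutant cells and -0.71 in wild-type cells. EIF3D encodes a peripheral subunit that can itself bind the cap of some mRNAs. Its summed sgRNA abundance was 1.72 and 1.40 reads per 1000000 library reads (CPM) in the mutant day 9 libraries, against 9.14 and 10.4 at day 0. In wild-type cells it was 1.59 and 0.578 CPM at day 9, against 10.4 and 11.3 at day 0. Every day 9 library lay far under every day 0 library, and the fall was 6.36-fold in mutant cells (log2 -2.67 ± 0.43 SE, edgeR adjusted p 1.63e-05) and 9.99-fold in wild-type cells (-3.32 ± 0.46, 1.16e-06). Among all 18903 genes that placed EIF3D 83rd from the bottom in mutant cells and 32nd in wild-type cells.

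EIF3I and EIF3G encode 2 of the subunits that sit near the mRNA entry side of the small subunit. EIF3I had 4.27 and 5.87 CPM at day 9 in mutant cells, against 22.6 and 25.4 CPM at day 0, and 6.03 and 8.94 CPM at day 9 in wild-type cells, against 24.5 and 21.7 CPM at day 0. It fell 4.65-fold in mutant cells (log2 -2.22 ± 0.22 SE, edgeR adjusted p 1.37e-09) and 3.08-fold in wild-type cells (-1.62 ± 0.22, 6.02e-07). EIF3G had 8.39 and 9.72 CPM at day 9 in mutant cells, against 21.8 and 19.1 CPM at day 0, and 8.36 and 6.90 CPM at day 9 in wild-type cells, against 24.5 and 19.8 CPM at day 0. EIF3G fell 2.24-fold in mutant cells (log2 -1.16 ± 0.20 SE, edgeR adjusted p 5.03e-05) and 2.90-fold in wild-type cells (-1.53 ± 0.21, 6.85e-07). For both genes no day 9 library reached any day 0 library. The gene nearest to EIF3I, TMEM234, lies within 1000 bp of it and was not called (log2 0.23 ± 0.12 SE in mutant cells and 0.33 ± 0.12 in wild-type cells).

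The other eIF3 subunits that were lower in both lines were EIF3H (log2 -1.13 in mutant cells and -1.23 in wild-type cells), EIF3A, the scaffold of the complex (-1.01 and -1.30), EIF3M (-0.73 and -0.71) and EIF3L (-0.79 and -0.50). EIF3J, a loosely bound subunit, had -0.68 ± 0.24 SE in mutant cells, short of the threshold, and was lower in wild-type cells (-1.02 ± 0.25). EIF3K had -0.10 ± 0.15 in mutant cells and was lower in wild-type cells (-0.49 ± 0.15). EIF3B, EIF3C and EIF3E were not called in either line, with log2 changes of -0.22, -0.32 and -0.49 in mutant cells and -0.51, -0.25 and -0.40 in wild-type cells. Under other processing some of these were called lower in mutant cells, EIF3C and EIF3E in 7 of 18 alternatives each and EIF3J in 4. EIF3F was the member of the complex with the smallest p in the comparison of lines and had 42.8 and 41.9 CPM at day 9 in mutant cells, against 53.8 and 52.0 CPM at day 0. In wild-type cells EIF3F had 56.6 and 50.1 CPM at day 9, against 59.4 and 48.1 CPM at day 0, where the groups overlapped. It was just under the threshold in mutant cells (log2 -0.32 ± 0.10 SE, edgeR adjusted p 0.0498) and had -0.01 ± 0.10 in wild-type cells.

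Several of these calls ended when 1 library was left out. The EIF3A call in mutant cells ended without mutant day 9 replicate 1, mutant day 0 replicate 1 or mutant day 0 replicate 2 (edgeR adjusted p 0.0690, 0.0769 and 0.148). The EIF3F call in mutant cells ended without any 1 of the 4 mutant libraries or of the 2 wild-type day 0 libraries (0.0501 to 0.345). In wild-type cells, EIF3J was lost without wild-type day 9 replicate 2 (log2 -0.67) or day 0 replicate 2 (adjusted p 0.0607 and 0.0659). EIF3K was lost without wild-type day 9 replicate 2 or any 1 of the 4 day 0 libraries (0.0513 to 0.163), and EIF3L without wild-type day 9 replicate 1 (log2 -0.33) or either wild-type day 0 library (0.0964 to 0.205). EIF3L in mutant cells had -0.52 without mutant day 9 replicate 2 and was still called.

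**Figure D2:**
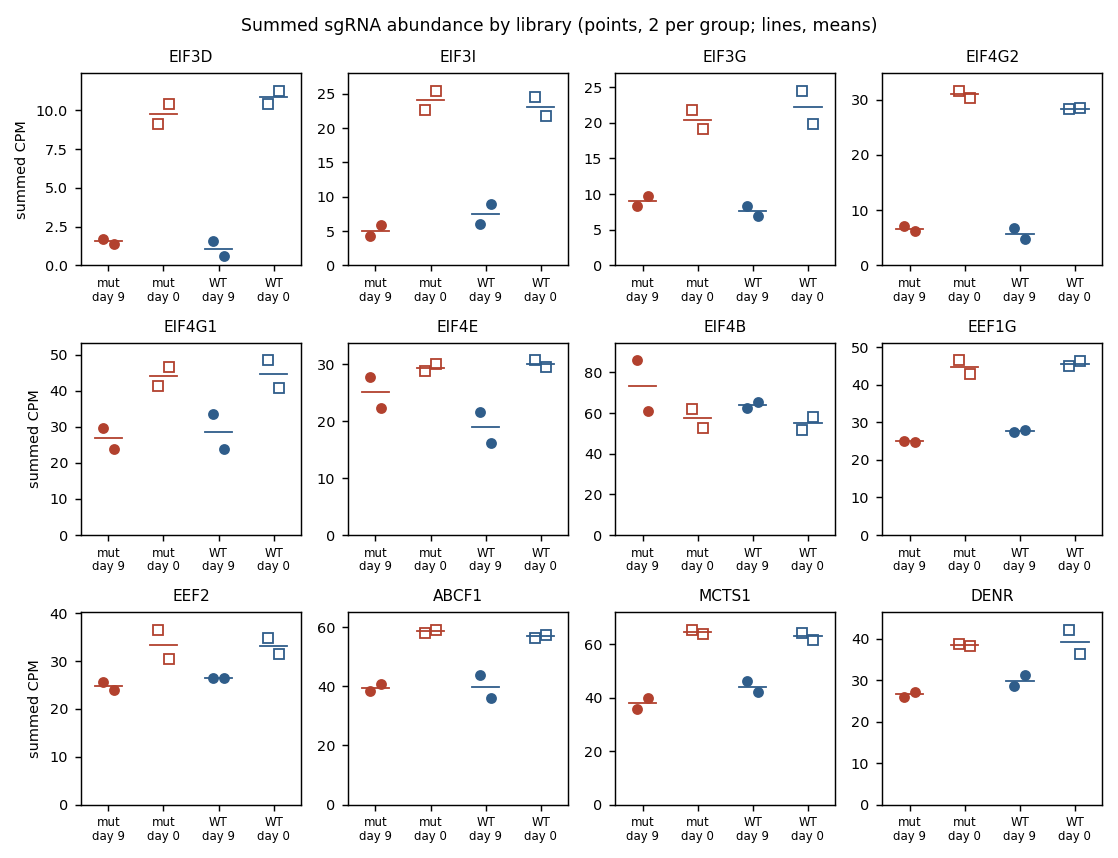
Summed sgRNA abundance in CPM (y axis, from 0) in each library for 12 genes; points are libraries, 2 per group, filled at day 9 and open at day 0, and lines are means. EIF3D, EIF3I, EIF3G and EIF4G2 lie far lower at day 9 than at day 0 in both lines, while the EIF4B points of mutant cells are apart at day 9 (86.0 and 61.0 CPM).

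Among the 9 genes of eIF4F and its partners, 3 were lower and 1 higher in mutant cells, and 4 were lower in wild-type cells. The steepest was not a part of eIF4F proper but EIF4G2 (DAP5), an eIF4G relative that lacks the eIF4E-binding region and serves cap-independent and some cap-dependent initiation. EIF4G2 had 7.13 and 6.15 CPM at day 9 in mutant cells, against 31.6 and 30.3 CPM at day 0, and 6.70 and 4.75 CPM at day 9 in wild-type cells, against 28.3 and 28.6 CPM at day 0. The fall was 4.67-fold in mutant cells (log2 -2.22 ± 0.19 SE, edgeR adjusted p 3.82e-11) and 4.95-fold in wild-type cells (-2.31 ± 0.19, 2.80e-11). In each line these were the smallest p-values among the 38 genes.

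The 3 scaffolds of the eIF4G family thus had different values. EIF4G1, the main scaffold of eIF4F, had 29.8 and 24.0 CPM at day 9 in mutant cells, against 41.4 and 46.7 CPM at day 0, and 33.5 and 23.9 CPM at day 9 in wild-type cells, against 48.5 and 40.9 CPM at day 0. It fell 1.64-fold in mutant cells (log2 -0.71 ± 0.14 SE, edgeR adjusted p 0.000255) and 1.55-fold in wild-type cells (-0.64 ± 0.14, 0.00122). EIF4G3, the second scaffold, had 33.6 and 33.5 CPM at day 9 in mutant cells, against 32.9 and 37.5 CPM at day 0, and 38.97 and 33.0 CPM at day 9 in wild-type cells, against 32.2 and 32.7 CPM at day 0. EIF4G3 was not called in either line (log2 -0.07 ± 0.12 SE in mutant cells and 0.15 ± 0.12 in wild-type cells). The wild-type call of EIF4G1 ended without wild-type day 9 replicate 2 (log2 -0.41, edgeR adjusted p 0.0654) or wild-type day 0 replicate 1 (-0.51, 0.0965).

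The helicase genes also had unlike values. EIF4A1, the abundant form of the eIF4A helicase, had 16.3 and 13.4 CPM at day 9 in mutant cells, against 21.7 and 23.1 CPM at day 0, and 15.5 and 17.3 CPM at day 9 in wild-type cells, against 22.85 and 25.1 CPM at day 0. Its log2 change was -0.59 ± 0.17 SE in mutant cells (edgeR adjusted p 0.0153) and -0.54 ± 0.17 in wild-type cells (0.0309). EIF4A2, its close relative, had -0.02 ± 0.10 in mutant cells and -0.12 ± 0.10 in wild-type cells and was not called. The EIF4A1 call in mutant cells ended without mutant day 9 replicate 2 or either mutant day 0 library (0.0896 to 0.215), and that in wild-type cells without wild-type day 9 replicate 1 or any 1 of the 4 day 0 libraries (0.0657 to 0.290).

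EIF4E, the cap-binding protein, had 27.7 and 22.3 CPM at day 9 in mutant cells, against 28.9 and 30.0 CPM at day 0. In wild-type cells it had 21.6 and 16.2 CPM at day 9, against 30.7 and 29.4 CPM at day 0. Its log2 change was -0.23 ± 0.15 SE in mutant cells (edgeR adjusted p 0.473), and it fell 1.59-fold in wild-type cells (-0.67 ± 0.15, 0.00178). The wild-type call was lost without wild-type day 9 replicate 2 (-0.48, 0.0531). EIF4B, which stimulates the helicase, had 86.0 and 61.0 CPM at day 9 in mutant cells, against 62.3 and 52.7 CPM at day 0, so that the groups overlapped. In wild-type cells EIF4B had 62.6 and 65.5 CPM at day 9, against 51.8 and 58.2 CPM at day 0, which did not overlap. Its log2 change was 0.36 ± 0.11 SE in mutant cells (edgeR adjusted p 0.0378) and 0.23 ± 0.11 in wild-type cells (0.269). The rise in mutant cells rested on mutant day 9 replicate 1, without which it was 0.09 (0.759) and with which alone it was 0.59, and it was also lost without mutant day 0 replicate 2 (0.24, 0.518), without either wild-type day 0 library (0.0586 and 0.0600) and with DESeq2 (0.290). EIF4H, a relative of EIF4B, and PABPC1, the poly(A)-binding protein that links the mRNA's ends through eIF4G, were not called in either line (-0.08 and -0.21 in mutant cells and -0.23 and -0.21 in wild-type cells).

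None of the 5 genes whose products act at the start codon or in subunit joining was called in either line. EIF1 and EIF1B encode closely related proteins that guard the choice of start codon. EIF1 had 55.4 and 57.4 CPM at day 9 in mutant cells, against 59.4 and 53.9 CPM at day 0, and its log2 change was 0.00 ± 0.09 SE in mutant cells and 0.08 ± 0.09 in wild-type cells. EIF1B had -0.08 ± 0.10 in mutant cells and 0.01 ± 0.10 in wild-type cells. EIF1AX, the X-linked gene of eIF1A, had 54.3 and 54.7 CPM at day 9 in mutant cells, against 60.9 and 67.5 CPM at day 0, which did not overlap, and its log2 change was -0.23 ± 0.09 SE (edgeR adjusted p 0.138). EIF1AX was called lower in mutant cells with DESeq2 and with limma, and 1 of its 5 sgRNAs was lower there on its own (log2 -1.59, edgeR adjusted p 0.00455). In wild-type cells the gene had -0.05 ± 0.09. EIF5, which triggers GTP hydrolysis by eIF2, had -0.04 ± 0.16 in mutant cells and -0.28 ± 0.16 in wild-type cells. EIF5B, the subunit-joining GTPase, had -0.12 ± 0.12 in mutant cells and -0.30 ± 0.13 in wild-type cells. The test does not show that their knockdown was without effect, since the degree of knockdown was not measured.

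Of the 6 elongation genes, 2 were lower in mutant cells and 1 in wild-type cells. EEF1G, the scaffold subunit of eEF1B, had 25.1 and 24.8 CPM at day 9 in mutant cells, against 46.5 and 42.8 CPM at day 0, and 27.5 and 28.1 CPM at day 9 in wild-type cells, against 45.0 and 46.3 CPM at day 0. It fell 1.79-fold in mutant cells (log2 -0.84 ± 0.11 SE, edgeR adjusted p 7.99e-07) and 1.64-fold in wild-type cells (-0.71 ± 0.11, 1.52e-05). EEF1B2 and EEF1D, which carry the nucleotide-exchange activity, were not called, with 0.17 ± 0.10 and 0.05 ± 0.13 in mutant cells and -0.03 ± 0.10 and 0.09 ± 0.13 in wild-type cells. EEF1B2 shares its start region with NDUFS1, a complex I gene within 1000 bp of it, which fell in both lines (log2 -0.60 in mutant cells and -0.76 in wild-type cells). EEF1A1 had -0.34 ± 0.13 in mutant cells and -0.18 ± 0.13 in wild-type cells and was not called. EEF2K, the kinase that inactivates eEF2, had 0.11 ± 0.10 in mutant cells and -0.02 ± 0.10 in wild-type cells.

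EEF2 had 25.7 and 24.0 CPM at day 9 in mutant cells, against 36.6 and 30.4 CPM at day 0, and 26.5 and 26.4 CPM at day 9 in wild-type cells, against 34.8 and 31.5 CPM at day 0. The days did not overlap in either line, and the log2 change was -0.42 ± 0.13 SE in mutant cells (edgeR adjusted p 0.0321) and -0.32 ± 0.13 in wild-type cells (0.144). The call in mutant cells ended without either mutant day 9 library, mutant day 0 replicate 1 or either wild-type day 0 library (0.0533 to 0.645). Genes that build diphthamide, the modified histidine found on eEF2, were also measured: 4 of 7 were lower in each line, with median log2 changes of -0.59 in mutant cells and -0.56 in wild-type cells. Among them DNAJC24 had -1.33 ± 0.13 SE in mutant cells and -0.77 ± 0.13 in wild-type cells, and DPH1 had -1.004 ± 0.13 and -0.81 ± 0.13.

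The ABCF proteins are ATPases that bind ribosomes, and 1 of the 3 was lower in each line. ABCF1 had 38.4 and 40.7 CPM at day 9 in mutant cells, against 58.0 and 59.1 CPM at day 0, and 43.9 and 35.9 CPM at day 9 in wild-type cells, against 56.4 and 57.4 CPM at day 0. It fell 1.47-fold in mutant cells (log2 -0.56 ± 0.10 SE, edgeR adjusted p 0.000121) and 1.42-fold in wild-type cells (-0.51 ± 0.10, 0.000526). ABCF2 and ABCF3 had log2 changes between -0.05 and 0.15 over the 2 lines and were not called.

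DENR and MCTS1 form a heterodimer that recycles small subunits and supports re-initiation, and both genes were lower in both lines. MCTS1 had 36.0 and 40.1 CPM at day 9 in mutant cells, against 65.5 and 63.9 CPM at day 0, and 46.3 and 42.1 CPM at day 9 in wild-type cells, against 64.4 and 61.7 CPM at day 0. It fell 1.69-fold in mutant cells (log2 -0.76 ± 0.10 SE, edgeR adjusted p 2.29e-07) and 1.42-fold in wild-type cells (-0.51 ± 0.10, 0.000188). DENR had 26.0 and 27.2 CPM at day 9 in mutant cells, against 38.7 and 38.3 CPM at day 0, and 28.6 and 31.2 CPM at day 9 in wild-type cells, against 42.1 and 36.3 CPM at day 0. Its log2 change was -0.53 ± 0.12 SE in mutant cells (edgeR adjusted p 0.00204) and -0.39 ± 0.12 in wild-type cells (0.0352). The wild-type call of DENR ended without wild-type day 9 replicate 1, wild-type day 0 replicate 1 or either mutant day 0 library (0.0687 to 0.444).

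Single sgRNAs showed that several of these gene-level values were sums over very unequal guides. Of the 192 sgRNAs, 47 were lower in mutant cells on their own (edgeR adjusted p under 0.05), where 5.1% of all targeting sgRNAs were, and 46 in wild-type cells, against 5.22%. Shares of all targeting sgRNAs are over the 102987 kept, which include second-promoter sgRNAs, while the 192 are primary-promoter sgRNAs only. Without wild-type day 0 replicate 1 or replicate 2 the count in wild-type cells was 30. The share of all targeting sgRNAs called in those fits is not given here. With all 8 libraries, none of the 192 was higher in mutant cells (beside 0.166% of all) or in wild-type cells (beside 0.273%). Of these, 38 were lower in both lines, 9 only in the mutant test and 8 only in the wild-type test. Measured against the non-targeting controls, 73 of 192 lay under the controls' 5th percentile in mutant cells (log2 -0.47), beside 11.4% of all targeting sgRNAs, and 79 in wild-type cells (-0.54), beside 10.8%. At least 2 sgRNAs were lower for 14 of the 38 genes in mutant cells (6.21% of all genes) and for 14 in wild-type cells (6.26% of all genes).

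**Figure D3:**
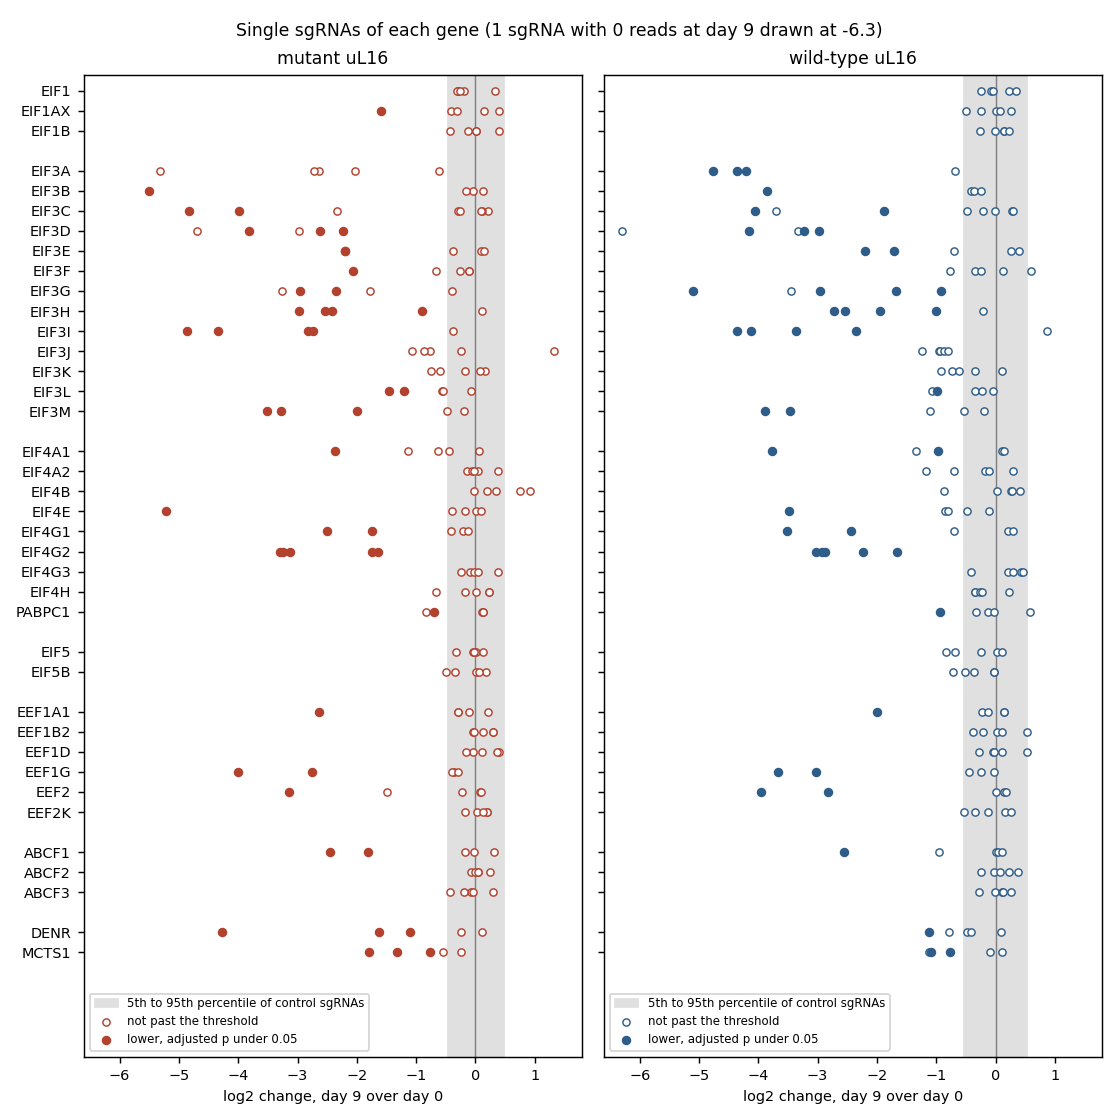
Log2 change of each of the 192 sgRNAs (x axis, day 9 over day 0; 1 point per sgRNA) by gene, in mutant (left) and wild-type (right) uL16 cells, with the 5th to 95th percentile of non-targeting controls in grey. Filled points passed an adjusted p of 0.05; EIF4G2 has 5 of 5 filled in both panels, EIF3H 4 of 5, and EIF3B, EIF4E and EEF1A1 1 each. The EIF3D sgRNA with 0 reads at day 9 in wild-type cells is drawn at the left edge of that panel, which is not its measured change.

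EIF4G2 was the most uniform of the genes that fell, with all 5 sgRNAs lower in both lines (log2 -3.29 to -1.64 in mutant cells and -3.04 to -1.66 in wild-type cells). EIF3H and EIF3I had 4 of 5 lower in both lines. EIF3D had all 5 sgRNAs under the controls' 5th percentile in both lines and 3 of 5 past the test in each, at low counts throughout. Its rarest sgRNA had 0 and 2 reads at day 9 in mutant cells, against 25 and 63 at day 0. In wild-type cells that sgRNA had 0 reads in both day 9 libraries, against 58 and 22 at day 0.

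At other genes a steep response of 1 or 2 sgRNAs stood beside guides with small changes. The steepest EIF4E sgRNA had 3 and 6 reads at day 9 in mutant cells, against 175 and 376 at day 0, and 11 and 15 reads at day 9 in wild-type cells, against 233 and 184 at day 0. Its log2 change was -5.22 in mutant cells and -3.48 in wild-type cells, while the other 4 EIF4E sgRNAs lay between -0.39 and 0.09 in mutant cells and between -0.86 and -0.12 in wild-type cells. EIF3B showed the same in both lines, with 1 sgRNA at -5.51 in mutant cells and -3.85 in wild-type cells and its other 3 between -0.41 and 0.12. EEF1A1 had 1 sgRNA at -2.63 in mutant cells and -1.996 in wild-type cells, and its other 4 lay between -0.30 and 0.21. EEF2 had 2, at -3.15 and -1.50 in mutant cells and -2.83 and -3.95 in wild-type cells, with its other 3 between -0.23 and 0.17. EIF3B and EEF1A1 were not called as genes in either line, nor was EEF2 in wild-type cells: in all, 7 genes in mutant cells and 6 in wild-type cells had at least 1 sgRNA called lower without a lower call of the gene, beside 6.69% of all genes in mutant cells and 7.17% in wild-type cells. In the other direction, 1 gene in mutant cells (EIF3A) and 2 in wild-type cells (EIF3J and EIF3K) were called lower with no single sgRNA called, beside 0.709% and 0.624% of all genes.

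Summing counts gives abundant sgRNAs more weight, and at EIF3A this set the size of the value. Its 4 rare sgRNAs, at 0.659 to 1.82 CPM over the day 0 libraries, changed by -5.33 to -2.04 in mutant cells and by -4.77 to -4.21 in wild-type cells. The abundant sgRNA, at 9.07 CPM, had -0.62 in mutant cells and -0.69 in wild-type cells. With the most abundant sgRNA of each gene left out, EIF3A stood at -2.78 in mutant cells and -4.44 in wild-type cells, and EIF3G at -2.57 and -2.38, while EIF3H stood at -0.72 in mutant cells. Averaging log2 CPM over sgRNAs instead of summing (limma) gave steeper values for 18 of the called changes, by over 1.5 times, among them EIF3M with -1.91 in each line, EEF1G with -1.56 in mutant cells and -1.48 in wild-type cells, and DENR with -1.39 in mutant cells. By that measure EIF1AX, EIF3B, EIF3C, EIF3E, EIF4E and EEF1A1 were also called lower in mutant cells, and EIF3B, EIF3C, EIF3E, EIF4A2 and EEF2 in wild-type cells. EIF4B was then no longer called in mutant cells, and EIF3J and EIF3K no longer in wild-type cells.

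EIF3C is a special case, because its near-identical copy EIF3CL lies on the same chromosome. The 3 sgRNAs that the library lists for both genes had the same counts under both names, and they fell steeply, by -4.83 to -2.33 in mutant cells and -4.05 to -1.89 in wild-type cells. Their sum was 0.581 and 0.550 CPM at day 9 in mutant cells, against 7.40 and 7.69 CPM at day 0, and 0.859 and 1.36 CPM at day 9 in wild-type cells, against 6.51 and 7.27 CPM at day 0. The 5 sgRNAs listed for EIF3C alone stayed within the control range, from -0.30 to 0.22 in mutant cells and -0.49 to 0.29 in wild-type cells. Those 5 summed to 35.6 and 35.8 CPM at day 9 in mutant cells, against 37.99 and 37.7 CPM at day 0, and 34.7 and 37.5 CPM at day 9 in wild-type cells, against 37.8 and 37.3 CPM at day 0. They held most of the reads of EIF3C, whose gene-level change of -0.32 in mutant cells and -0.25 in wild-type cells was not called. The 2 sets lie apart, with the 3 shared sgRNAs within 19 bp of the steepest and the other 5 between 451 and 488 bp from it.

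**Figure D4:**
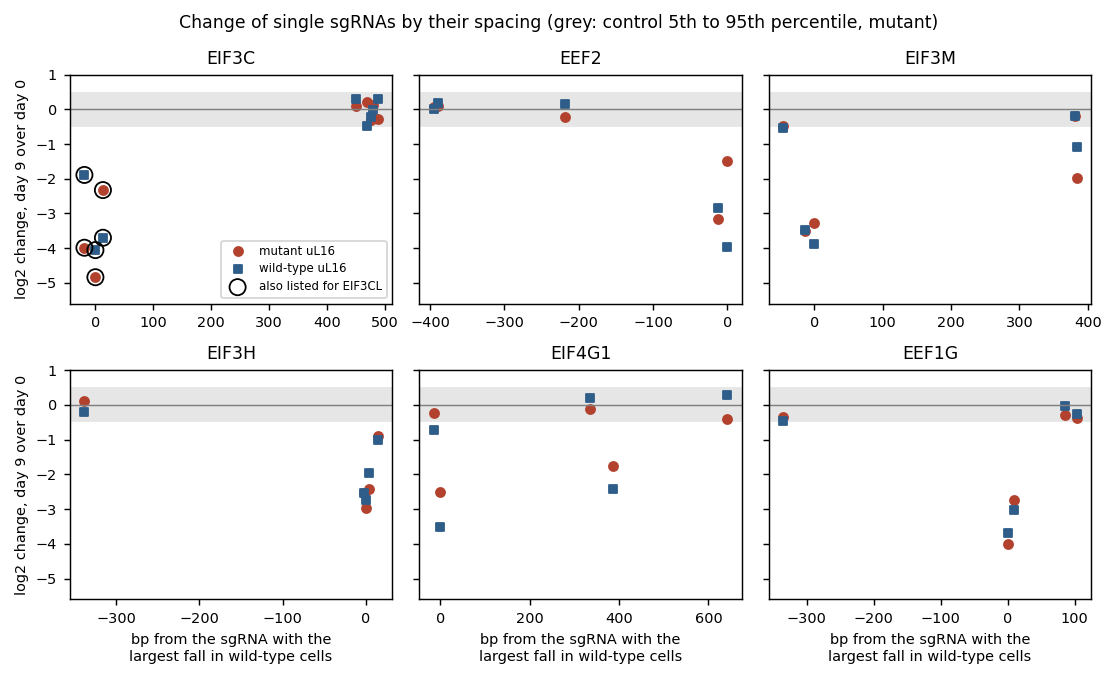
Log2 change of single sgRNAs (y axis, day 9 over day 0) against distance in bp from the sgRNA with the largest fall in wild-type cells (x axis), for 6 genes in mutant (red circles) and wild-type (blue squares) cells; the grey band is the 5th to 95th percentile of controls in mutant cells. At EIF3C the 3 sgRNAs also listed for EIF3CL (ringed) lie near 0 bp and fell, while the 5 at 451 to 488 bp did not leave the control range in mutant cells.

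Spacing could be read for other genes as well, from the positions in the sgRNA names and without placing them on a genome. The 21 genes with at least 1 sgRNA called lower in wild-type cells were used. Taking the sgRNA with the largest fall in wild-type cells as the origin and reading the changes in mutant cells, 35 sgRNAs of 17 genes lay within 100 bp of it and had a median log2 change of -1.32. Of these 35, 15 were called lower (42.9%). The 51 sgRNAs of 19 genes farther away had a median of -0.27, and 14 were called lower (27.5%). Among 2861 other genes chosen and handled the same way, 31.5% of nearby sgRNAs and 12.4% of distant ones were called lower. This measure and its window were chosen after the data were seen and were not tested. At EEF1G the 2 steep sgRNAs lay 9 bp apart, and at EEF2 12 bp apart, with the remaining 3 EEF2 sgRNAs 218 to 395 bp away. Some sgRNAs just as close to the origin were not called in either line. Among them were 1 of ABCF1 at 6 bp (log2 0.32 in mutant cells), those of EIF3B at 12 and 20 bp (0.12 and -0.04) and 1 of EEF1A1 at 19 bp (-0.29). Other called sgRNAs lay far from the origin, among them 1 of EIF4G1 at 387 bp (log2 -1.75 in mutant cells), 1 of EIF3M at 384 bp (-1.99), 1 of ABCF1 at 364 bp (-1.81) and those of DENR at 189 and 225 bp (-1.63 and -4.27).

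Of the 38 genes, 6 have a separate set of sgRNAs for a second promoter. None of the 6 second sets was called in either line, where 0.789% of the 1395 such sets tested were called in mutant cells and 1.22% in wild-type cells. The EIF4G2 second set had 71.4 and 64.6 CPM at day 9 in mutant cells, against 71.6 and 69.8 CPM at day 0, and 67.0 and 72.2 CPM at day 9 in wild-type cells, against 74.8 and 69.2 CPM at day 0. Its log2 change was -0.08 ± 0.08 SE in each line, where the primary set had -2.22 in mutant cells and -2.31 in wild-type cells. ABCF1 had 0.06 ± 0.09 in mutant cells and -0.10 ± 0.09 in wild-type cells from its second set, and EEF2 had 0.06 ± 0.10 and 0.07 ± 0.10. Pooling both sets moved EIF4G2 to -0.45 in mutant cells and -0.41 in wild-type cells, still called, and ABCF1 to -0.19 in mutant cells, no longer called (edgeR adjusted p 0.0762).

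The comparison of lines, which the study was built around, gave no call among these genes. Over all genes 0.0159% (3 genes) differed between the lines after adjustment, and 0 of the 38 did, with a smallest adjusted p of 0.890 in edgeR. At an unadjusted p under 0.05, 2 of the 38 differed (EIF3F and EIF4E), beside 5.57% of all genes. The mutant log2 change minus the wild-type log2 change was -0.31 ± 0.15 SE for EIF3F (unadjusted edgeR p 0.0424). For EIF4E this value was 0.43 ± 0.21 (0.0488). The largest differences were -0.60 ± 0.30 for EIF3I and 0.65 ± 0.62 for EIF3D, with unadjusted p of 0.0572 and 0.304. At EIF3I the sgRNA not called lower in either line differed by -1.24, with -0.38 in mutant cells and 0.86 in wild-type cells. The EIF3I sgRNAs called lower differed by -0.50, -0.20, 0.54 and -0.39. MCTS1 had -0.25 ± 0.14 (0.0769), EIF1AX -0.18 ± 0.13 (0.173), EEF1B2 0.20 ± 0.14 (0.181), EIF5 0.24 ± 0.23 (0.295) and ABCF3 -0.06 ± 0.14 (0.654). DESeq2 and limma also called none of the 38. Among single sgRNAs, 14 of 192 differed at an unadjusted p under 0.05 (7.29%, beside 5.11% of all sgRNAs) and none after adjustment, where the smallest adjusted p was 0.964. These p-values do not show that the lines respond alike: the SE of a difference was 0.13 to 0.62 on the log2 scale over the 38 genes. Across the 38 genes the changes in both lines had a Pearson correlation of 0.942, and across the 192 sgRNAs of 0.850, beside 0.899 over all genes. Genes and sgRNAs are not independent replicates, and all points share the same libraries.

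**Figure D5:**
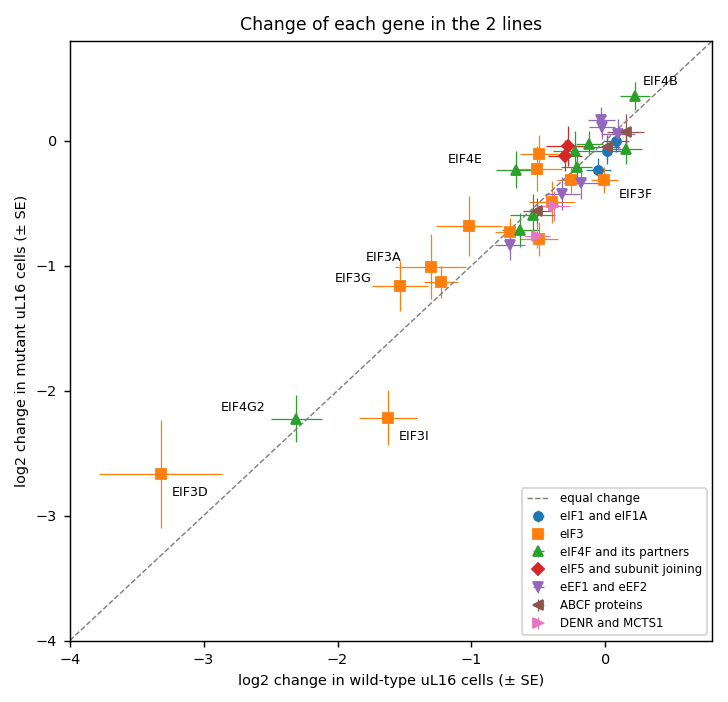
Log2 change of each of the 38 genes in mutant (y axis) against wild-type (x axis) uL16 cells, ± SE, coloured and shaped by role; the dashed line marks equal change. EIF3I lies below the line (-2.22 in mutant and -1.62 in wild-type cells) and EIF3D above it (-2.67 and -3.32), and neither difference passed the test.

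Related genes outside the 38 set these values in context. Of 8 genes of eIF2 and eIF2B, which supply the initiator tRNA, 5 were lower in each line, with median log2 changes of -0.94 in mutant cells and -1.28 in wild-type cells. Examples are EIF2S1, the eIF2 subunit phosphorylated in stress (-2.74 ± 0.26 SE in mutant cells and -2.71 ± 0.26 in wild-type cells), and EIF2B5, the catalytic subunit of eIF2B (-1.86 ± 0.17 and -2.06 ± 0.17). Of 32 small-subunit ribosomal proteins, on which the initiation factors act, 23 were lower in each line, with medians of -0.77 in mutant cells and -0.93 in wild-type cells. In a list of 23 eIF4F regulators, scanning helpers and other factors, 4 were lower in mutant cells and 3 in wild-type cells. The medians were -0.05 in mutant cells and -0.04 in wild-type cells. The steepest fall on it was that of EIF6, which is not an eIF4F regulator or scanning helper (-1.38 ± 0.13 SE in mutant cells and -1.14 ± 0.13 in wild-type cells). PABPC4, a relative of PABPC1, had -0.50 ± 0.11 SE in mutant cells and -0.90 ± 0.11 in wild-type cells, and EIF3CL, which is on that list and shares 3 of its 5 sgRNAs with EIF3C, -0.60 ± 0.18 and -0.68 ± 0.18. LARP1, the protein that binds pyrimidine starts, named here after its values were seen, was lower in mutant cells (-0.35 ± 0.11 SE, edgeR adjusted p 0.0345) and had -0.24 ± 0.11 in wild-type cells (0.205). Of 9 other elongation and termination genes, 3 were lower in each line, with medians of -0.25 in mutant cells and -0.35 in wild-type cells, among them the recycling ATPase ABCE1 (-3.34 ± 0.20 SE in mutant cells and -2.47 ± 0.19 in wild-type cells).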

How the data were processed

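The deposited values are raw counts of reads for each sgRNA, in a single table that the authors left unnormalized and that has a column for each library. Per the file headers (4 lines), reads were trimmed to bases 1 to 39 before counting; the submitters' processing notes name hg38, and for the counting program the sources used here give no name. Positions in the sgRNA names belong to another build than GRCh38, so only distances between them are used. The table lists 209070 sgRNAs, of which 103686 were at 0 throughout. sgRNAs with a mean count of at least 20 were kept (102987 targeting and 1894 control), and those of the primary promoter were summed for genes with at least 3 (95977 sgRNAs, 18903 genes). For the 38 genes, 380 sgRNAs were listed, 187 were 0 in every library and 1 was removed as low. CPM are counts per 1000000 reads of the library after TMM scaling. They depend on how many copies of each sgRNA the pool held. They are compared between genes only for the day 0 levels described under the other observations.

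Summed counts were fitted in R 4.3.3 with edgeR 4.0.16 (TMM, glmQLFit, glmQLFTest), 1 mean per group over all 8 libraries and 4 residual degrees of freedom. Single sgRNAs were tested likewise. P-values were adjusted by Benjamini-Hochberg over all features tested, with a threshold of 0.05. SEs were derived from the fit, as the absolute log2 change divided by the square root of the F statistic of the test. Alternatives used DESeq2 1.42.0, limma 3.58.1 (prior count 2 on the log2 CPM scale) and the settings named in the closing section. The labels' protocols name no molecular identifiers, so reads can be PCR copies of 1 molecule, and depth bounds the counting error alone. No p-value was computed for the group of genes as a whole.

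The genes, their role groups and the related lists were chosen with earlier results of these data known. In each role group, up to 3 genes with the largest called fall and up to 2 with the largest called rise were picked for more detail. The gene with the smallest p between lines was added, as were the pairs EIF1 and EIF1B, EIF4A1 and EIF4A2, and EIF4G1 and EIF4G3. Values per library are given for most of these genes. They are given in mutant cells only for EIF1 and EIF1AX, and not for EIF1B, EIF4A2, EIF5, EEF1B2 and ABCF3. Others are given by their log2 change. Replicate numbers were not used to pair the libraries: deviations of same-numbered libraries correlated at 0.047 in mutant cells and 0.024 in wild-type cells. These correlations cannot show whether same-numbered libraries came from the same culture.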

Additional observations from a re-analysis of the deposited data

How the results depend on the processing

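No direction of a called change was reversed under any of 18 alternatives for each line. Among genes not called, the sign changed in at least 1 alternative for 8 in mutant cells and 12 in wild-type cells. For the difference, with 17 alternatives, no gene was called, so no call could be reversed. Its sign changed in at least 1 alternative for 21 of the 38 genes. EIF3A and EIF3D were not tested at a mean count of at least 100 and had 17 for each line. In mutant cells 11 of 17 calls held in every alternative that tested the gene, and 6 ended in at least 1 (EIF3A, EIF3F, EIF4A1, EIF4B, EEF2 and ABCF1). In wild-type cells 10 of 17 held likewise, and 7 ended in at least 1 (EIF3J, EIF3K, EIF3L, EIF4A1, EIF4E, EIF4G1 and DENR). Genes not called gained a call as lower in at least 1 alternative: in mutant cells 7, namely EIF3C and EIF3E (7 alternatives each), EIF3J (4), EEF1A1 (3), EIF1AX (2), EIF3B and EIF4E (1 each), and in wild-type cells 6, namely EIF3B (4), EIF3C (3), EIF3E and EEF2 (2 each), EIF4A2 and EIF4H (1 each). The number of the 38 genes called ranged from 13 to 22 in mutant cells, beside 17, and from 12 to 20 in wild-type cells, beside 17, and was 0 for the difference under all alternatives. Leaving out 1 library gave 30 to 52 single sgRNAs called in wild-type cells, beside 46, with 30 without either wild-type day 0 library. A fit with a replicate block called 17 in mutant cells (16 lower and 1 higher), 17 in wild-type cells and 0 for the difference. Whether the replicate numbers pair the libraries was not settled. DESeq2 called 21 in mutant cells and 20 in wild-type cells. The shares of all genes and of all targeting sgRNAs called under these alternatives are not given here. These counts therefore do not show whether the 38 genes moved more than other genes did. The EIF4B rise was also lost with scaling to control sgRNAs (0.0694), a mean count of at least 100 (0.0535) or only the libraries of the mutant line (0.0570), the EIF3F fall with RLE size factors (0.0518) or no filter on low counts (0.05001), the EEF2 fall with all promoters pooled (0.633), and in wild-type cells the DENR fall with only that line's libraries (0.0502) and the EIF3K and EIF4A1 falls without the most abundant sgRNA (0.230 and 0.349), all adjusted p from edgeR. The cause was not tested. Low day 0 counts limit the precision of some sgRNAs, among them several of EIF3A, EIF3D, EIF3G and EIF3J, 2 libraries per group limit all comparisons, and knockdown was not measured.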

Other observations

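sgRNAs against several of these factors, most of them eIF3 subunits, were rare at day 0. Taking for each gene the median CPM of its sgRNAs over the 4 day 0 libraries, 8 of the 38 genes lay below the 5th percentile of all genes tested and 27 below the median. The 38 genes had a median of 7.33 CPM per sgRNA, beside 8.53 CPM over all genes. Of the 8, 7 encode eIF3 subunits: EIF3A had 1.12 CPM, EIF3D 1.41, EIF3K 2.56, EIF3J 3.31, EIF3E 3.58, EIF3G 4.04 and EIF3C 4.38, and the other was EIF5 with 4.24. EIF3C, EIF3E and EIF5 were not called lower as genes in either line. Across the 38 genes the rank correlation of day 0 level with the later change was 0.347 in mutant cells and 0.490 in wild-type cells, a description in which both measures share the day 0 libraries. Day 0 levels also depend on how many copies of each sgRNA the pool held. The make-up of the sgRNA pool before day 0 was not analysed here, and no part of this was tested.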
